A study of Mus musculus with 2 samples.

Results

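CpG-rich distal peaks are the DNase I hypersensitive sites (DHS) of mouse splenic B cells that look like CpG islands in sequence but lie away from annotated promoters. A peak was counted as CpG-rich when G and C made up 55% or more of its whole mm9 sequence and the ratio of observed to expected CpG reached 0.6, and as distal when it overlapped no window from 5 kb upstream to 2 kb downstream of a GENCODE M1 transcription start site (TSS). On the 19 autosomes 269 of 46610 DHS met both conditions. They made up 1.09% of the 24654 distal DHS (95% interval 0.969 to 1.23) and 4.55% of the 5908 CpG-rich DHS (4.05 to 5.11), since the other 5639 CpG-rich DHS touched a promoter window. The comparison groups below are these 5639 CpG-rich promoter peaks and the 24385 distal peaks that were not CpG-rich, called other distal peaks.

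The study mapped accessible chromatin in splenic B cells to describe the state in which p53 finds its sites before irradiation. The cells came from 8 weeks old C57/Bl6 mice, wild-type for p53 (Trp53+/+) and mock-treated, and were enriched with magnetic beads against B220, a surface protein of B cells. There are 2 samples, 1 DNaseI library and 1 input library of the same cells, and the data are a single list of 47542 peaks from the DNaseI library. Read counts are not part of the list, which leaves the depth unknown, and with 1 library and no replicates no p-value could be given. Intervals are at the 95% level, cover counting error over peaks only, and do not describe the spread between mice or libraries.

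DNase I cuts DNA that is free of nucleosomes more readily than packed DNA, so that regions bound by regulatory proteins appear as peaks of cuts. In vertebrate genomes most CpG dinucleotides are methylated and lost over evolution, which leaves CpG islands as short unmethylated stretches where CpG remains frequent. Most islands are promoters of housekeeping and developmental genes, while those inside genes or between genes, often called orphan islands, include unannotated promoters, alternative promoters and CpG-rich coding exons. Enhancers of B cells, by contrast, are mostly CpG-poor and carry sites of factors such as PU.1 and RUNX.

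B cell identity was checked on lists of marker genes, with a DHS in a promoter window as the criterion. All 10 B cell markers met it, among them Cd79a, Ms4a1, Pax5 and Ebf1, against 58.1% of 21281 protein-coding genes. So did 3 of 10 T cell markers (Lck, Tcf7 and Gata3), 5 of 10 myeloid markers and 3 of 7 erythroid markers, and the part of other cells in the CpG-rich distal peaks was not tested.

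The central 300 bp of 5 peaks, on the plus strand of mm9, show what the sequence rule selects. The first 4 carry each CpG in capitals and are the highest-scoring intergenic peak (upstream of Gm10775), the highest-scoring intronic peak (in Tcf20), the highest-scoring coding peak whose centre lies outside untranslated sequence (in Sp6) and a peak with one of the highest CpG ratios (downstream of AC134910.1). The last carries in capitals the match to the CTCF motif in the highest-scoring peak that has one, downstream of Ccne1.
Gm10775 upstream, chr13:65342401-65342700: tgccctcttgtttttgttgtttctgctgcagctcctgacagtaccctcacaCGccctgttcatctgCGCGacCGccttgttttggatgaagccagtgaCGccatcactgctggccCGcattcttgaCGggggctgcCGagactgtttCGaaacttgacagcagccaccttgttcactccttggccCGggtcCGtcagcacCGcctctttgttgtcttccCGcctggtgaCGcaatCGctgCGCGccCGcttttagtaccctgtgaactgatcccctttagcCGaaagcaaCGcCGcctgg
Tcf20 intron, chr15:82729157-82729456: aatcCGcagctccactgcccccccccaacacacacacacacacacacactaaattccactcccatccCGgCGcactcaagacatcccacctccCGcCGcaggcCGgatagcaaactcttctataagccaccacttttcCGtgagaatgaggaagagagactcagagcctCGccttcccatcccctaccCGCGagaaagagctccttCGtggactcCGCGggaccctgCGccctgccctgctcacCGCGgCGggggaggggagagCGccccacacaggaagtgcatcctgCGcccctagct
Sp6 coding exon, chr11:96883262-96883561: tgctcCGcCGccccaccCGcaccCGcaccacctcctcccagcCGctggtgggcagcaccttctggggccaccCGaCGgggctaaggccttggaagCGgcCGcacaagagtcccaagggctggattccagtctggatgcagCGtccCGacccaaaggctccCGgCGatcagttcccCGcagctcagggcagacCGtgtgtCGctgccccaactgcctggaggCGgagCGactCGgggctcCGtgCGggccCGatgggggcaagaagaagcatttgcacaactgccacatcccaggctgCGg
AC134910.1 downstream, chr5:25035944-25036243: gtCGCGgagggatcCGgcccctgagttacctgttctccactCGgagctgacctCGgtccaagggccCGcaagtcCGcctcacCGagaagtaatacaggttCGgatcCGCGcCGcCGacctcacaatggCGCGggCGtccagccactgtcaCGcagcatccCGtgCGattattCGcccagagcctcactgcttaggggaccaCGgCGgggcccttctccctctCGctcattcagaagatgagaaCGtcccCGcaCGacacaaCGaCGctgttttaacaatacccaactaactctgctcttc
Ccne1 downstream, chr7:38846166-38846465: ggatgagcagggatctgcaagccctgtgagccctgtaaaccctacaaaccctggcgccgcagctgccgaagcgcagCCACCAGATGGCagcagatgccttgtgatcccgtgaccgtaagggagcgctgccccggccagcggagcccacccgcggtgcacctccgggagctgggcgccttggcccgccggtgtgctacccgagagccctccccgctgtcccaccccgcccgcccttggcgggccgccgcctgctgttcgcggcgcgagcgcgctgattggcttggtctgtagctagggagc
These windows held 21 CpGs near Gm10775, 19 in Tcf20, 23 in Sp6 and 28 near AC134910.1, where the observed to expected ratio was 1.04. The Sp6 window was coding over all of its 300 bases, and the other windows held no annotated exon base. The peaks near Gm10775 and AC134910.1, in Tcf20 and near Ccne1 each hold the RefSeq start of a long non-coding RNA. The Ccne1 window held 1 CTCF match within a GC content of 70.7%.

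Over the whole peak the median GC content was 60.5% and the median CpG ratio 0.71, against 47.2% and 0.22 in other distal peaks; these values follow from the selection. In the 1 kb on either side, which the rule did not use, the median GC content fell to 51.1% (50.3 to 51.7) and the CpG ratio to 0.34 (0.32 to 0.36), still above the 45.6% and 0.21 beside other distal peaks. Flanks that met the same thresholds as the peak were found at 22 of 269 peaks (8.18%, 5.46 to 12.1), against 0.172% of other distal and 13.8% of CpG-rich promoter peaks. Towards the centre the sequence became richer, with a median GC content of 64.0% and a CpG ratio of 0.78 in the central 300 bp, and 224 of 269 peaks passed the rule on these bases alone. CpG-rich promoter peaks, chosen by the same thresholds, had central medians of 66.0% and 0.82. As the centre is part of the peak, these central values also follow in part from the selection.

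**Figure D1:**
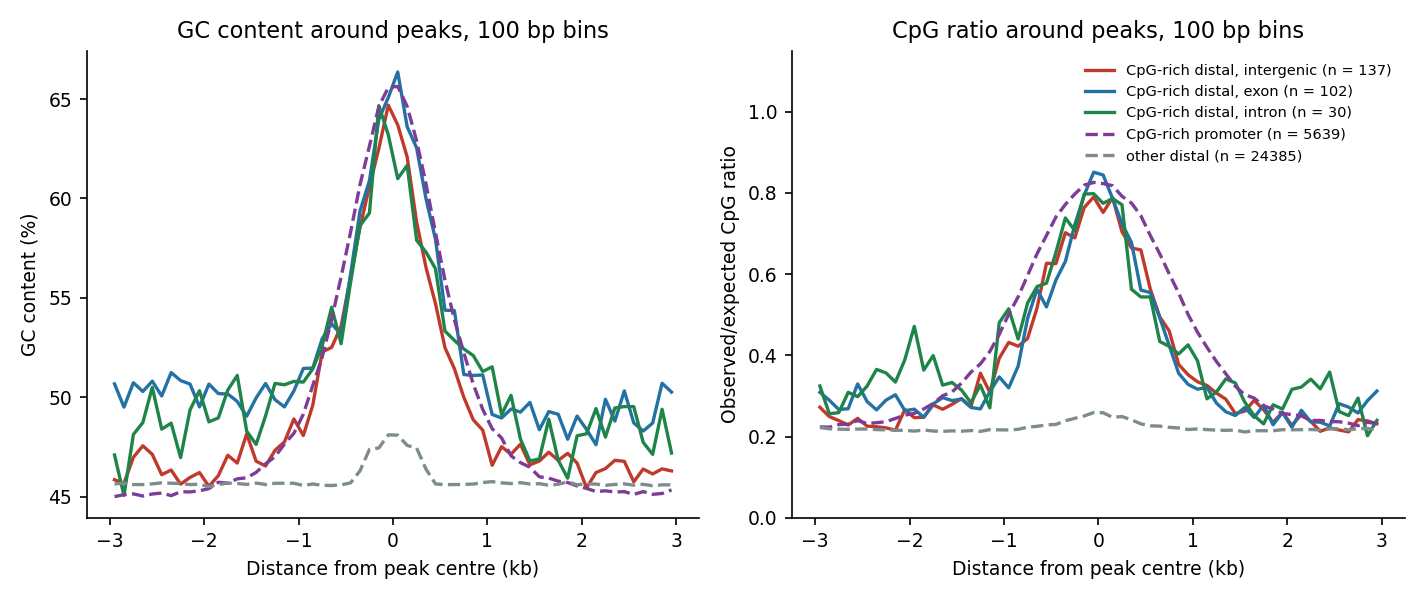
GC content (left, %) and observed to expected CpG ratio (right) in 100 bp bins up to 3 kb from the peak centre, pooled over the peaks of each group. CpG-rich distal peaks between genes, over exons and in introns reach ratios of 0.75 to 0.85 beside the centre, close to the 0.83 of CpG-rich promoter peaks, while other distal peaks stay at or below 0.26.

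In intergenic CpG-rich distal peaks the ratio was 0.79 in the bin before the centre on the plus strand. It fell to 0.43 at 950 bp before the centre and to 0.35 at 950 bp after it. In CpG-rich promoter peaks it was 0.83 in the bin before the centre and 0.50 at 950 bp on either side. Exonic peaks went from 0.85 to 0.32 at 950 bp before the centre and 0.33 at 950 bp after it. GC content around them was 50.7% at 2950 bp before the centre, against 45.9% around intergenic ones. After the centre it was 47.6% at 2150 bp and 50.3% at 2950 bp, against 46.2% and 46.3%.

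By placement, 137 CpG-rich distal peaks were intergenic (50.9%, 44.98 to 56.8), 102 overlapped an annotated exon (37.9%, 32.3 to 43.8) and 30 lay within introns (11.2%, 7.92 to 15.5). Other distal peaks had a similar intergenic share of 48.9% (48.3 to 49.5), but only 9.48% of them touched an exon and 41.6% were intronic. Read the other way, 4.23% of the distal peaks over exons were CpG-rich (3.49 to 5.10), 1.14% of intergenic ones (0.962 to 1.34) and 0.295% of intronic ones (0.207 to 0.420). High GC content went part of the way with this shift. Among the 1267 other distal peaks that reached 55% GC without the CpG ratio, 25.9% overlapped an exon (23.6 to 28.4) and 37.8% were intergenic. This high GC group was not matched for GC content: its median was 56.5%, against 60.5% in CpG-rich distal peaks.

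Coding sequence was touched by 92 of 269 peaks (34.2%, 28.8 to 40.1), against 6.54% of other distal peaks and 21.4% of those with high GC content. Untranslated sequence was touched by 54 of 269 (20.1%, 15.7 to 25.3), against 3.98% and 10.7%. Among the 102 exonic peaks coding sequence took up a median of 51.5% of the peak (quartiles 34.4 and 69.7), against 10.1% in the 2312 exonic peaks that were not CpG-rich. The longest exon under a peak had a median length of 892.5 bp, against 214.5 bp, and 65 of 102 peaks (63.7%, 54.1 to 72.4) reached the last exon of a transcript, against 45.5%. The host genes were varied. They included Sp6, a zinc finger transcription factor of the SP/KLF family; Kbtbd11 and Klhl31, which encode kelch domain proteins; Relb, an NF-kB subunit; Maff, a small MAF transcription factor; and Pomc, the precursor of pituitary hormones. Except for Sp6 and Kbtbd11 these hosts were picked after their values were seen, as examples of coding exons.

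The score is the value the authors listed for each peak, and its scale is not given. It had a median of 32.96 in CpG-rich distal peaks (26.47 to 40.15, n = 269), with quartiles at 16.46 and 71.81 and a range from 7.40 to 324.58. The median was 24.33 in other distal peaks (24.05 to 24.63) and 89.92 in CpG-rich promoter peaks (88.20 to 92.56). The difference to other distal peaks was 8.63 (2.14 to 15.82, from the interval of the first median), and the quartiles of both groups overlapped widely. CpG-rich distal peaks were most frequent at the top of the distal scores. They were 65 of the 2466 distal peaks in the highest decile (2.64%, 2.07 to 3.35), 14 of 2465 in the fifth (0.568%, 0.339 to 0.951) and 25 of 2466 in the lowest (1.01%, 0.688 to 1.49). The highest ranked 36 among distal peaks and 341 among all autosomal peaks, and 3 were among the 100 highest distal peaks.

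**Figure D2:**
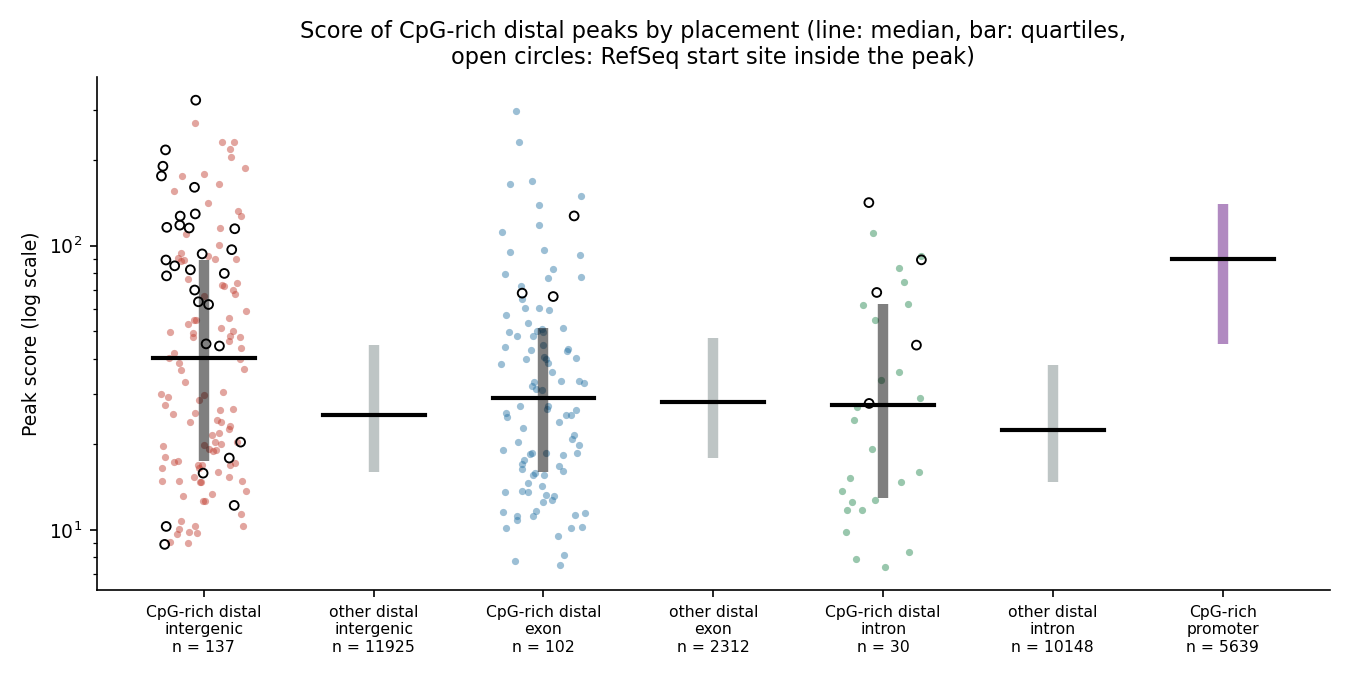
Peak score on a log scale for the 137 intergenic, 102 exonic and 30 intronic CpG-rich distal peaks (points, with open circles where a RefSeq start site lies inside), beside other distal peaks of the same placement and CpG-rich promoter peaks (median and quartiles only). The intergenic CpG-rich peaks have a median of 40.15 against 25.32 in other intergenic distal peaks, the exonic ones 29.09 against 28.16, and open circles gather in the upper part of the intergenic column.

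Among intergenic peaks the median score was 40.15 (26.64 to 51.45), against 25.32 (24.88 to 25.75) in other intergenic distal peaks. The 29 intergenic peaks that hold a RefSeq start site, a comparison described below, had a median of 84.87 (62.04 to 115.89). The 108 without one had a median of 29.58 (23.27 to 43.56), an interval that holds 25.32. Of these, 12 (11.1%, 6.47 to 18.4) lay in the top decile of all autosomal scores, against 3.61% (3.29 to 3.96) of other intergenic distal peaks. The latter group still held 317 peaks with a RefSeq start, and its median width was 633 bp, against 798.5 bp in the 108. Over exons the medians were 29.09 (21.58 to 39.82) and 28.16 (27.20 to 29.53), and in introns 27.44 (14.76 to 54.92) and 22.44 (22.08 to 22.81), so that in these placements the interval of the CpG-rich peaks held the median of the others. Whether the difference itself varied with placement was not tested. In the top decile of all autosomal scores lay 18 of the 137 intergenic peaks (13.1%, 8.48 to 19.8), 6 of the 102 exonic ones and 25 of all 269 (9.29%, 6.37 to 13.4), against 2.94% of other distal and 29.8% of CpG-rich promoter peaks.

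Width moved with the score. CpG-rich distal peaks were 824 bp wide at the median (730 to 893), other distal peaks 602 bp and CpG-rich promoter peaks 1171 bp, and across the 269 peaks score and width had a Spearman rho of 0.68, given as a description. The score did not follow the CpG ratio among them (rho -0.07) and fell slightly with GC content (rho -0.21). At matched width, the 46 narrowest CpG-rich distal peaks, under 402 bp, had a median score of 15.46 against 15.7 in other distal peaks. From 402 bp to below 604 bp the medians were 16.89 (n = 47) and 20.86. From 604 bp to below 1009 bp they were 33.46 (n = 77) and 27.1, and from 1009 bp upwards 76.41 (n = 99) and 53.54. In each of the last 3 classes CpG-rich promoter peaks stood higher, at 36.18, 72.33 and 114.41.

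**Figure D3:**
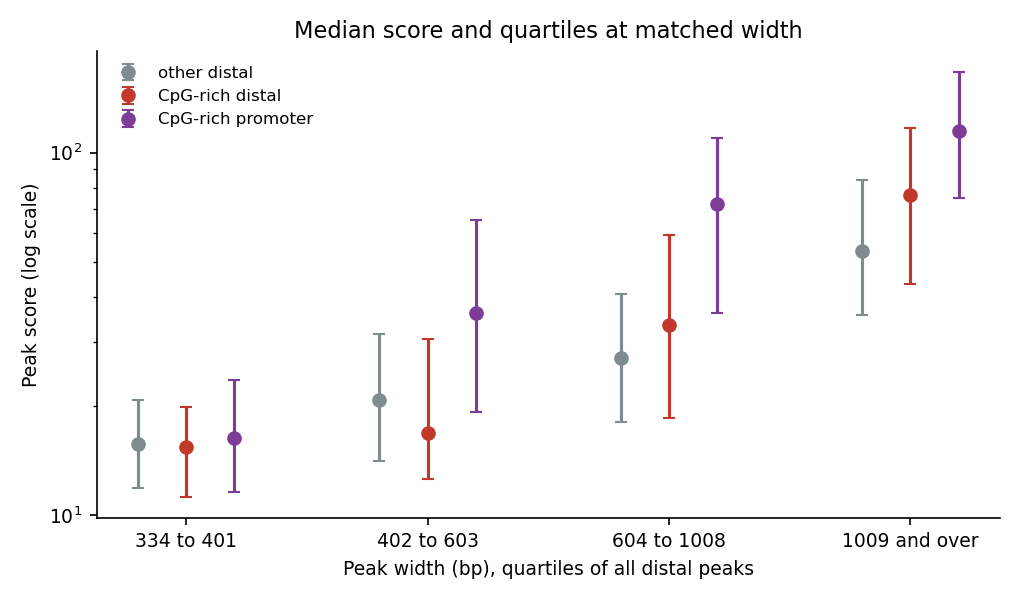
Median peak score (points, log scale) with quartiles (bars) in 4 width classes set by the quartiles of all distal peaks. CpG-rich distal peaks lie with other distal peaks at the narrow end (15.46 and 15.7) and between the other distal and CpG-rich promoter peaks at the wide end (53.54, 76.41 and 114.41).

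The label distal was checked against RefSeq, whose start sites were not part of the rule and were placed on mm9 by exact sequence. Of 32614 starts on the autosomes and chromosome X, 31108 could be placed. This comparison was added after the data had been seen. A RefSeq start lay inside 37 of the 269 peaks (13.8%, 10.2 to 18.4), against 405 of 24385 other distal peaks (1.66%, 1.51 to 1.83), 3.39% of other distal peaks with high GC content and 58.1% of CpG-rich promoter peaks. Of the 37, 29 were intergenic by GENCODE M1, which is 21.2% of the intergenic CpG-rich distal peaks (15.2 to 28.7). A wider set of 67 (24.9%, 20.1 to 30.4) overlapped the window of 5 kb before to 2 kb after such a start, against 7.39% of other distal and 81.3% of CpG-rich promoter peaks. For these peaks the data go against the label, and they are distal only by GENCODE M1.

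In 20 of the 37 peaks the start belonged to a protein-coding gene and in 17 to a long non-coding RNA. The coding genes included Zfp518a (score 217.01), a zinc finger protein, Rnf4 (175.69), a SUMO-targeted ubiquitin ligase, Cep85l (160.29), a centrosomal protein, Il6st (96.72), the gp130 receptor chain of the interleukin-6 family, Exosc6 (68.02), a subunit of the RNA exosome, and Tet1 (44.65), a dioxygenase of 5-methylcytosine. In Il6st and Zfp518a the nearest GENCODE start was one of the same gene, 10829 and 16646 bp away. Low scores occurred too, as at Papss2 (8.89), an enzyme of sulfate activation, and Rnf180 (12.19), a ubiquitin ligase. These genes, Zfp518a excepted, were chosen from the 37 after their values were seen.

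The score moved with these starts. Among peaks that hold one the median score was 82.19 (66.17 to 114.59, n = 37), with an interval that holds the 89.92 of CpG-rich promoter peaks, and the median width was 1210 bp. The 232 peaks without one had a median score of 27.2 (24.05 to 33.52) and a median width of 745 bp. For the 202 peaks outside all RefSeq windows the median was 26.6 (21.58 to 33.56), an interval that holds the 24.10 of the other distal peaks treated in the same way, and the difference fell from 8.63 to 2.455. Their shares also moved, to 45.5% exonic and 44.6% intergenic. Other distal peaks with a RefSeq start inside scored higher as well, with a median of 45.95 (41.24 to 51.73, n = 405). By width class, from narrow to wide, the peaks outside RefSeq windows had medians of 15.46 against 15.73, 15.90 against 20.90, 30.93 against 27.15 and 68.6 against 53.17 in other distal peaks, so that the direction was not the same in all classes.

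**Figure D4:**
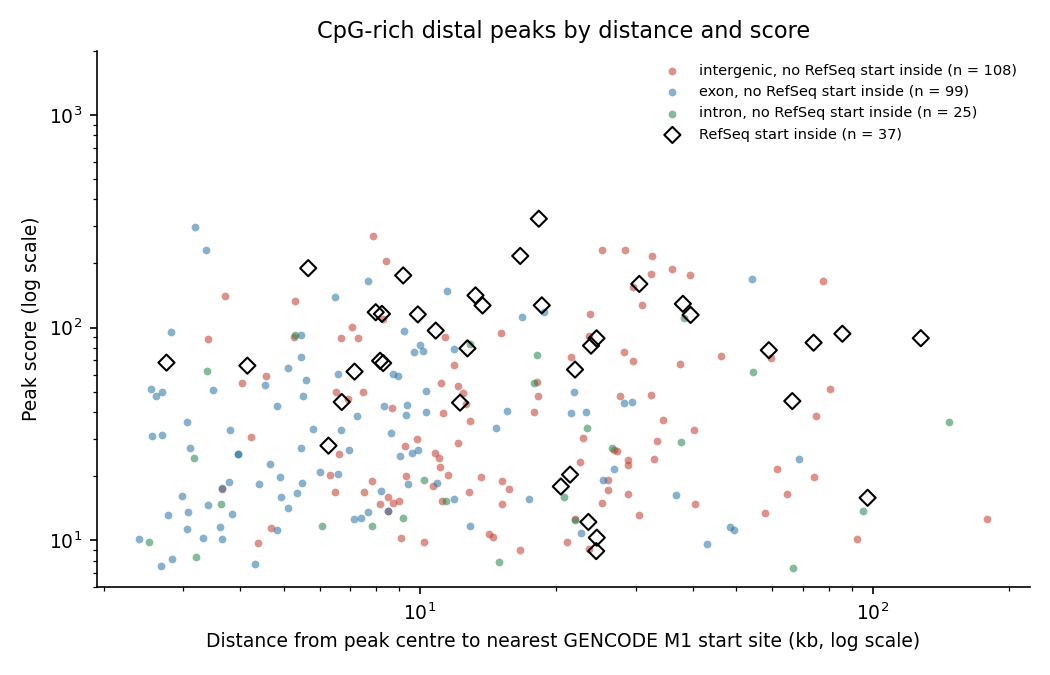
Peak score against distance from the peak centre to the nearest GENCODE M1 start site, both on log scales, for the 269 CpG-rich distal peaks, with the 37 that hold a RefSeq start site as diamonds. Diamonds range from 2753 to 127711 bp in distance and from 8.89 to 324.58 in score, with a lower score quartile of 45.10, and the other peaks from 7.40 to 297.73 in score, with a lower quartile of 15.8.

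CpG-rich distal peaks lay closer to annotated starts than other distal peaks, with a median distance of 10829 bp (9303 to 12417) against 16557 bp (16265 to 16819). Within 10 kb of a start were 126 of 269 (46.8%, 41.0 to 52.8), against 30.6%, and beyond 50 kb 22 of 269 (8.18%), against 16.7%. Other distal peaks with high GC content had a median of 11447 bp (10783 to 12109), an interval that overlaps that of the CpG-rich peaks. Placement mattered, with medians of 6641.5 bp for exonic and 15753 bp for intergenic peaks. Downstream of the nearest start lay 175 of 269 (65.1%, 59.2 to 70.5), against 57.3% of other distal peaks. By placement these were 86 of the 102 exonic peaks and 68 of the 137 intergenic ones (49.6%, 41.4 to 57.9). The latter interval holds the 42.5% of other intergenic distal peaks. The nearest neighbouring DHS was a promoter peak for 85 of 269 (31.6%, 26.3 to 37.4), against 20.7% of other distal peaks, and another CpG-rich distal peak for 26.

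Few lay close together. Of the 269 peaks, 41 lay within 10 kb of another, in 20 groups of at most 3, and counting each group once leaves 248 loci. The only group of 3 was at Scarf2, a scavenger receptor gene, where 2 exonic peaks and 1 intergenic peak had scores of 33.03, 77.36 and 47.81. Pairs lay in the homeobox genes Pax7 (15.25 and 12.69) and Phox2a (8.19 and 10.21) and in the cadherin gene Celsr3 (33.46 and 20.45). These loci were named after their values were seen. By chromosome the share of distal peaks ranged from 0.615% on chromosome 6 (8 of 1301) to 2.02% on chromosome 7 (30 of 1482).

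In 202 of 269 peaks (75.1%, 69.6 to 79.9) no word of 31 bases occurred a second time in the assembly, against 60.9% of other distal peaks and 81.1% of those with high GC content. In 13 peaks over 10% of words were repeated and in 2 peaks over 50%. The peak near Gm10775, the highest-scoring, had 4.21% repeated words.

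The 10 highest-scoring CpG-rich distal peaks were of mixed kinds. At chr13:65341277-65343825 the intergenic peak with the score 324.58 and a width of 2549 bp holds the RefSeq start of Gm36445, a long non-coding RNA, and lies 18296 bp from the nearest GENCODE start. Next came an exonic peak shared by 1700020L24Rik and Mmp28, a matrix metalloproteinase, at chr11:83253712-83255020 (score 297.73). An intergenic peak 7874 bp upstream of C430042M11Rik at chr17:84260574-84262640 scored 269.12 and has no RefSeq start. Rph3al, a Rab effector of exocytosis (231.66), BC032203 (230.66) and Hdac4, a class II histone deacetylase (217.87), likewise had intergenic peaks without a RefSeq start, 28405, 25225 and 32589 bp upstream. The peak in Sp6 scored 231.42. The remaining peaks were that of Zfp518a, an intergenic one 8400 bp upstream of Mirlet7a-1, a let-7 microRNA gene (204.99), and the one near AC134910.1 that holds the RefSeq start of 1700096K18Rik (190.11). Thus 3 of the 10 hold a RefSeq start, 2 overlap coding exons, and 5 are intergenic with neither, although the peaks at Mmp28 and Hdac4 overlap a RefSeq window.

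Width, CpG ratio and distance singled out other loci. The widest peak, 3003 bp over exons of Prr7 and Dbn1, the latter encoding the actin-binding protein drebrin, had 213 CpGs and a score of 164.97. It was followed by a peak of 2964 bp in Kbtbd11 (111.63) and 1 of 2836 bp 59541 bp downstream of Cxxc5 (71.81), a gene for a CXXC zinc finger protein. The highest CpG ratio, 1.17, was in an exonic peak of Kcnk12, a potassium channel gene, with a score of only 11.22. The ratio was 1.08 in the peak at the RefSeq start of Tnrc6b (114.59), a component of microRNA silencing, 1.04 in an intron of Gm12446 (12.48) and 0.99 in an exon of Npffr1 (10.83), a neuropeptide receptor gene. A high CpG ratio was thus found at both ends of the scores. Farthest from any GENCODE start were peaks 179161 bp upstream of Arhgef26 (12.64), 147069 bp into Kcnq1 (35.93), 127711 bp from Edn2 in an intron of Hivep3 (89.08), 97432 bp upstream of Grhl2 (15.83) and 95404 bp into Antxr2 (13.71). In Hivep3 and near Grhl2 they hold RefSeq starts of long non-coding RNAs.

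Genes of interest were searched within 10 kb of the gene, where 250 of 21281 protein-coding genes (1.17%) had a CpG-rich distal peak. Of 19 B cell genes 1 did, Ikzf3, which encodes the lymphoid transcription factor Aiolos. Its peak at chr11:98318447-98319178 scored 140.71, lies 7038 bp outside the gene and has Grb7 as its nearest start. Of 15 p53 target genes 2 did. The peak near Bbc3, the gene of the apoptosis effector PUMA, scored 29.91 and lies 9308 bp from it, and the one over coding sequence of Pmaip1, the gene of NOXA, scored 10.11. Of 19 developmental transcription factors 1 did, the cardiac homeobox gene Nkx2-5 (15.96), and of 19 imprinted genes 1, Kcnq1, whose peak lies in an intron. No peak was listed for the 20 T cell and 13 housekeeping genes. With 1 or 2 genes in a list the shares, from 5.26% to 13.3%, have intervals that reach from 0.935% to 37.9%.

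Short sequence words of transcription factors were searched on both strands of the central 300 bp. Their shares were compared with other distal peaks, with those of high GC content and with CpG-rich promoter peaks. The high GC distal peaks had a median central GC content of 57.3%, below the 64.0% of CpG-rich distal peaks. SP/KLF factors bind GC boxes, and their word GGGGCGGGG was present in 23 of 269 CpG-rich distal peaks (8.55%, 5.76 to 12.5), against 1.28% of other distal peaks, 4.97% of those with high GC content (3.91 to 6.31) and 13.0% of CpG-rich promoter peaks (12.1 to 13.9). Words that contain a CpG, such as this one, CACGTG, CCGGAAGT, AAGATGGCG, TGACGTCA and CTCGCGAG, hold what the rule selected for, so that their excess over CpG-poor distal peaks follows in part from the selection. The E2A E-box CAGCTG was found in 62 (23.0%, 18.4 to 28.4), below the 28.9% of high GC peaks and above the 14.9% of promoter ones, with an interval that overlaps those of both groups of distal peaks. The NF-kB motif was found in 19 (7.06%, 4.57 to 10.8), against 7.58% at high GC content and 4.02% in other distal peaks. The E-box of USF and MYC, CACGTG, was found in 23 (8.55%, 5.76 to 12.5), against 5.31% of other distal peaks, 5.84% of high GC distal peaks and 7.48% of CpG-rich promoter peaks, and the interval holds the last 2 values.

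**Figure D5:**
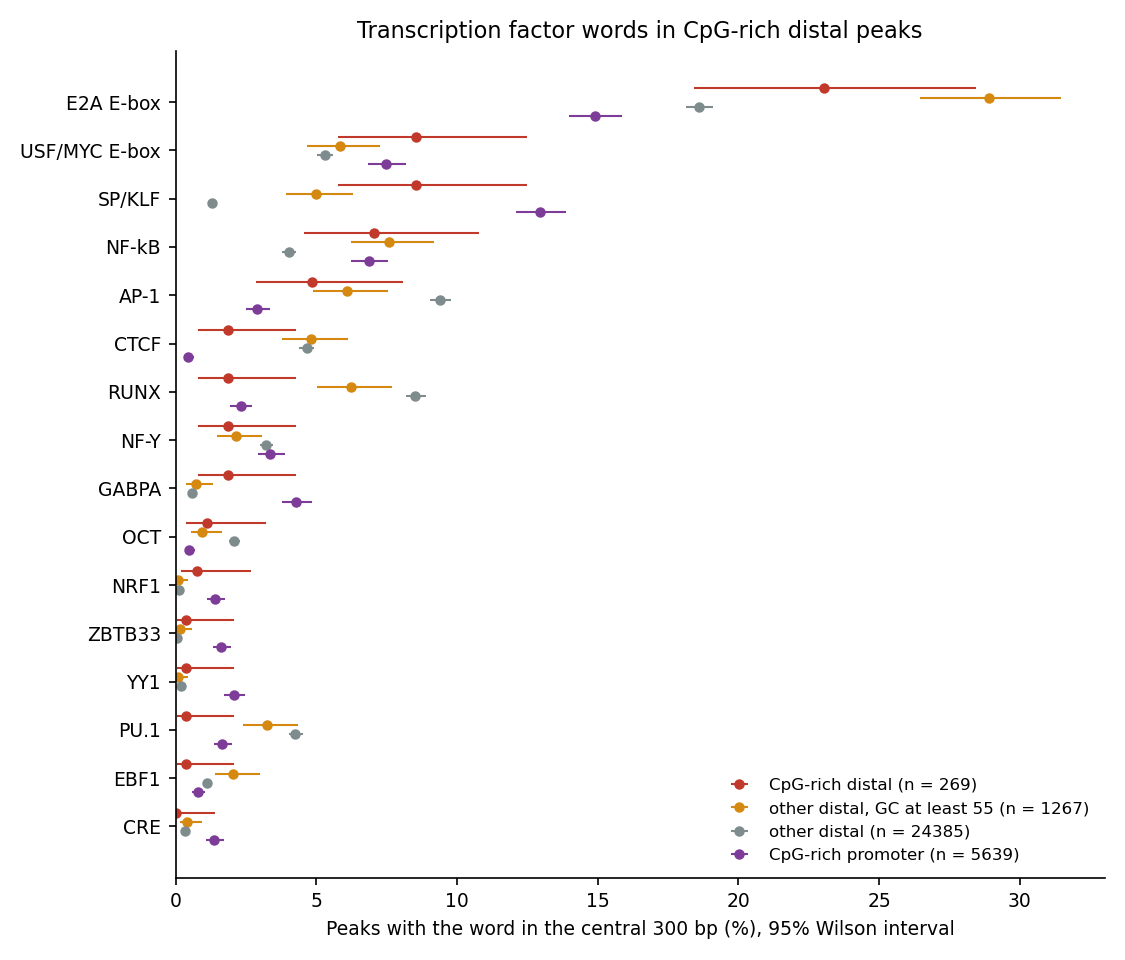
Share of peaks with each transcription factor word in the central 300 bp (%, points) with 95% Wilson intervals (bars) for 269 CpG-rich distal peaks, 1267 other distal peaks of at least 55% GC, all 24385 other distal peaks and 5639 CpG-rich promoter peaks. PU.1 and RUNX lie lower in CpG-rich distal than in other distal peaks, SP/KLF lies higher, and the REST motif is left out because at most 1 peak of any of these groups had it.

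Words of PU.1, RUNX and AP-1 were less frequent than in other distal peaks, and their shares in CpG-rich promoter peaks, 1.65%, 2.31% and 2.89%, lay within the intervals of the CpG-rich distal peaks. PU.1, an ETS factor of B and myeloid cells, had its word GAGGAAGT in 1 of 269 CpG-rich distal peaks (0.372%, 0.0657 to 2.08), against 4.26% of other distal and 3.24% of high GC distal peaks. RUNX (TGTGGTT) had 5 (1.86%, 0.796 to 4.28) against 8.52% and 6.24%, and AP-1 (TGANTCA) had 13 (4.83%, 2.85 to 8.09) against 9.40% and 6.08%, where the interval holds the second value. The CTCF motif was found in 5 (1.86%, 0.796 to 4.28), against 4.66% (4.40 to 4.93) in other distal peaks and 0.443% in CpG-rich promoter peaks. This gap depends on how CpG-rich peaks are defined, since among the 493 distal peaks whose central 300 bp alone met the thresholds the share was 4.06%, against 4.64% of the remaining distal peaks. For EBF1, a factor that specifies B cells, 1 peak had the motif (0.0657% to 2.08%), against 1.13%, which the interval holds. For CTCF the interval of high GC distal peaks, 3.77% to 6.14%, overlaps.

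Each of the remaining words was found in at most 5 peaks. GABPA (CCGGAAGT) was found in 5 peaks (1.86%, 0.796 to 4.28), between the 0.595% of other distal and the 4.27% of CpG-rich promoter peaks. NRF1 was found in 2 (against 0.107% of other distal peaks), YY1 (AAGATGGCG) in 1 (against 0.205%) and ZBTB33 (CTCGCGAG) in 1 (against 0.0328%). OCT (ATGCAAAT) was found in 3 (1.12%, 0.380 to 3.23), against 2.08% of other distal, 0.947% of high GC distal and 0.461% of CpG-rich promoter peaks. NF-Y (CCAATCA) was found in 5 (1.86%, 0.796 to 4.28), against 3.22%, 2.13% and 3.37%. Both intervals hold all of their comparison shares. The CRE word TGACGTCA and the REST motif were found in 0 of 269, which allows a share of up to 1.12% by 3 counts and 1.41% by the Wilson interval. For CRE the share in CpG-rich promoter peaks was 1.37%, which lies between these limits. The REST motif was found in 2 of all 46610 peaks, so its count of 0 sets the CpG-rich distal peaks apart from no other group. A match only says that the letters are present.

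At the thresholds of the rule, the 25 peaks less than 1 percentage point above the GC limit had a median score of 35.93. The 31 distal peaks as close below it that met the limit of the CpG ratio had 73.30. The 26 peaks within 0.02 above the limit of the CpG ratio had a median score of 23.4. The 22 distal peaks within 0.02 below it that met the GC limit had 18.12. Closest to the GC limit was a peak near Gm15749 with 55.1% and a score of 8.99, and closest to the ratio limit one over 9330198N18Rik with 0.603 and 149.01.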

How the data were processed

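DNase I digested DNA from 1 library of B220-enriched splenic B cells was sequenced, and the authors deposited a peak list whose values are a score for each peak. The submitters' processing notes name BWA 0.6.2, SAMtools and mm9; the peak names carry the word MACS. The study's methods give a MACS version and p-value threshold for its ChIP-seq data. Whether they apply to the DNase I list, the scale of the score and the use of the input library are not given in the sources used here. The list holds no counts, so the depth is unknown. From it GC content, CpG ratio, placement against GENCODE M1, distances, words of 31 bases found more than once in mm9, and 17 motifs in the central 300 bp were computed with Python 3.11.15, numpy 2.4.6, pandas 2.3.3 and numba 0.67.0, after the code was tested on simulated data. Shares have Wilson and medians order-statistic intervals at 95%. No test was run, as there are no replicates. RefSeq starts (GRCm38.p6) were placed on mm9 by unique exact matches of 60 bases, without converting coordinates. By rule, the peaks named were the 10 of highest score, the 5 widest, the 5 of highest CpG ratio, the 5 farthest from a TSS, those at genes of the lists and those nearest to a threshold, and others were named after their values were seen, as the text says. Members and lists were chosen with earlier results of these data known. Chromosomes outside the autosomes were left out of the comparisons, and 9 alternatives were planned.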

Additional observations from a re-analysis of the deposited data

Results flagged for a closer look

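Chromosome X was outside the comparisons, and its peaks were looked at because the same rule also found CpG-rich distal peaks there. They were 12 of 291 distal peaks (4.12%, 2.37 to 7.07), against 1.09% on the autosomes (0.969 to 1.23). No other library has a peak list to compare them with. Of the 12, 7 lay in Bcor, a gene for a transcriptional corepressor, with scores from 12.69 to 68.04, so that they are not independent loci. The highest score, 117.73, was in an intron of Mid1, a ubiquitin ligase gene, and an exonic peak of Tsc22d3, a glucocorticoid-induced gene, scored 15.83.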

How the results depend on the processing

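The depth of the single library is unknown, so a site without a peak is only one where none was called. The differences in median score and width kept their sign under every alternative, although some alternatives select on score or width themselves. The intergenic share did not keep its order: it was above that of other distal peaks as reported (50.9% against 48.9%) and below it with windows of 1 kb (46.2% against 48.0%), protein-coding starts (40.4% against 48.1%), peak centres (47.3% against 48.5%), stricter criteria (48.3% against 48.9%) and RefSeq starts added (44.6% against 47.2%). With protein-coding starts and with RefSeq starts added, exonic peaks outnumbered intergenic ones. Leaving out peaks rich in repeated words or of the lowest width, or placing peaks by their centre, moved none of the main values beyond their intervals or, for the count, beyond 1.5 times. With scores at or above the median there were 135 CpG-rich distal peaks, 1.51% of distal and 2.81% of CpG-rich peaks. They were 20.07 higher in median score and 88 bp wider than other distal peaks, in a setting that selects on the score itself. With windows of 1 kb the shares were 1.32% and 6.70% the median distance was 6506.5 bp and the score difference 4.51, against 8.63 as reported. With protein-coding starts only they were 1.42% and 6.36%, with 51.1% exonic, 40.4% intergenic and a median distance of 7113.5 bp. Stricter criteria (ratio 0.65, 500 bp) left 143 peaks, 0.580% and 3.23%, with differences of 23.56 in score and 393 bp in width. The width limit applied to the CpG-rich peaks alone, and the comparison group kept its narrow peaks (median width 601 bp). The width difference therefore follows in part from this choice, and the score rises with width. Judged on the central 300 bp there were 493, 2.0% and 6.22%, with differences of 24.04 and 466 bp, 27.2% exonic, 62.1% intergenic and 4.06% with the CTCF motif, against 1.86% as reported. Merging peaks closer than 500 bp gave differences of 4.74 in score and 105.5 bp in width. Adding RefSeq starts, an alternative chosen after seeing the data, gave 0.887% and 3.42%, with 45.5% exonic and differences of 2.455 in score and 139.5 bp in width. With protein-coding starts the score difference was 13.72. Beyond what each alternative fixes by construction, the cause was not tested. No paired analysis was possible because there is 1 library with a peak list and no test.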
